A study of Mus musculus with 6 samples.

Results

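The genes described here are 47 components of the Wnt pathway, chosen by symbol from the 46078 genes of the deposited count table: ligands and the proteins that secrete them, receptors and their turnover, secreted inhibitors, and intracellular parts. RNA was sequenced from C2C12 cells, an immortalized line of mouse myoblasts that fuse into myotubes when serum is withdrawn. The groups were *Hnrnpa2b1* knockout (KO) and wild type (WT), with 3 libraries each (KO1, KO2 and KO3, and WT1, WT2 and WT3). Both genotypes had been kept for 2 days in differentiation medium with insulin, transferrin and selenium. The KO was made with a Cas9 and guide RNA plasmid under puromycin selection, and the methods describe 3 independent clones of each genotype. In a Western blot the paper compared KO with cells given a scrambled guide. Whether the sequenced WT cells were treated in that way is not stated in the sources used here. Which clone gave which library is not given in the sources used here, so the p-values measure only the spread between these libraries. Fewer cells of a kind and less RNA per cell cannot be told apart in such bulk samples.

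Wnt proteins are secreted lipid-modified ligands that bind Frizzled receptors together with the co-receptors Lrp5 and Lrp6. In the canonical branch, a bound receptor recruits Dishevelled and halts the complex of Axin, Apc and Gsk3 that destroys β-catenin, which then enters the nucleus and activates genes with the TCF/LEF factors. R-spondins bind Lgr receptors and protect Frizzled proteins from the ubiquitin ligases Znrf3 and Rnf43, whereas secreted Frizzled-related proteins (Sfrp) and Dickkopf proteins (Dkk) act outside the cell, most of them as antagonists. In skeletal muscle the pathway is known for roles in the embryonic induction of myogenesis and in the differentiation of satellite cells.

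All 47 symbols were found. A second entry named *Fzd6*, on an assembly patch, had no counts and was left out. Of the 47 genes, 41 reached 10 counts in at least 3 libraries, and the same number passed the filter of the test. The 6 that did not pass were *Wnt5a*, *Sfrp1*, *Frzb*, *Wif1*, *Nkd1* and *Rnf43*. *Rnf43* had 0 counts in every library, and 3 counts, the limit that a count of 0 allows, correspond to 0.0687 to 0.0914 CPM, the count scaled to library size. Libraries held 33605258 to 40558740 counted reads. Levels are given as TPM (abundance corrected for transcript length and library size), and differences as the log2 fold change, or log2 ratio, from KO against WT counts, tested with edgeR's quasi-likelihood test with Benjamini-Hochberg adjustment over all 14828 genes tested.

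At an adjusted p under 0.05, 16 of the 41 genes differed between KO and WT (39.0%), where 22.7% of all genes tested did. Of the 16 genes called, 9 were higher in KO and 7 lower, against 12.1% and 10.6% of all genes. In all 16 the CPM ranges of KO and WT were apart. Including genes that did not pass the threshold, 22 of the 41 did not overlap, against 44.3% of all genes. The median log2 fold change of the 41 genes was −0.03 and that of all genes was 0.03. The number of genes called changed when a single library was left out, and the cause was not tested. It was 7 without WT1, 7 without WT3, 11 without WT2, 12 without KO3, 14 without KO2 and 20 without KO1. The shares of all genes called in the same fits were 6.01%, 8.43%, 13.6%, 13.9%, 17.7% and 30.6%. With all libraries, DESeq2 called 21 genes (24.3% of all genes), edgeR with no filter on low counts 26 (15.0%), limma on log2(TPM + 1) 10 (20.5%) and limma on log2(TPM + 0.1) 12 (20.3%). Scaling by relative log expression and a filter of 10 counts in 3 libraries each called 16 (22.8% and 22.6%). The calls of *Rspo3*, *Sfrp2*, *Tnik*, *Fzd4*, *Dkk3* and *Lgr4* held under every alternative that could test them. The limma fits kept genes with at least 1 TPM in 3 libraries. *Sfrp2* reached 1 TPM only in KO, and *Rspo3* and *Tnik* only in WT. The filter thus fixed the direction of these genes in the limma fits, which add no support for them.

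**Figure D1:**
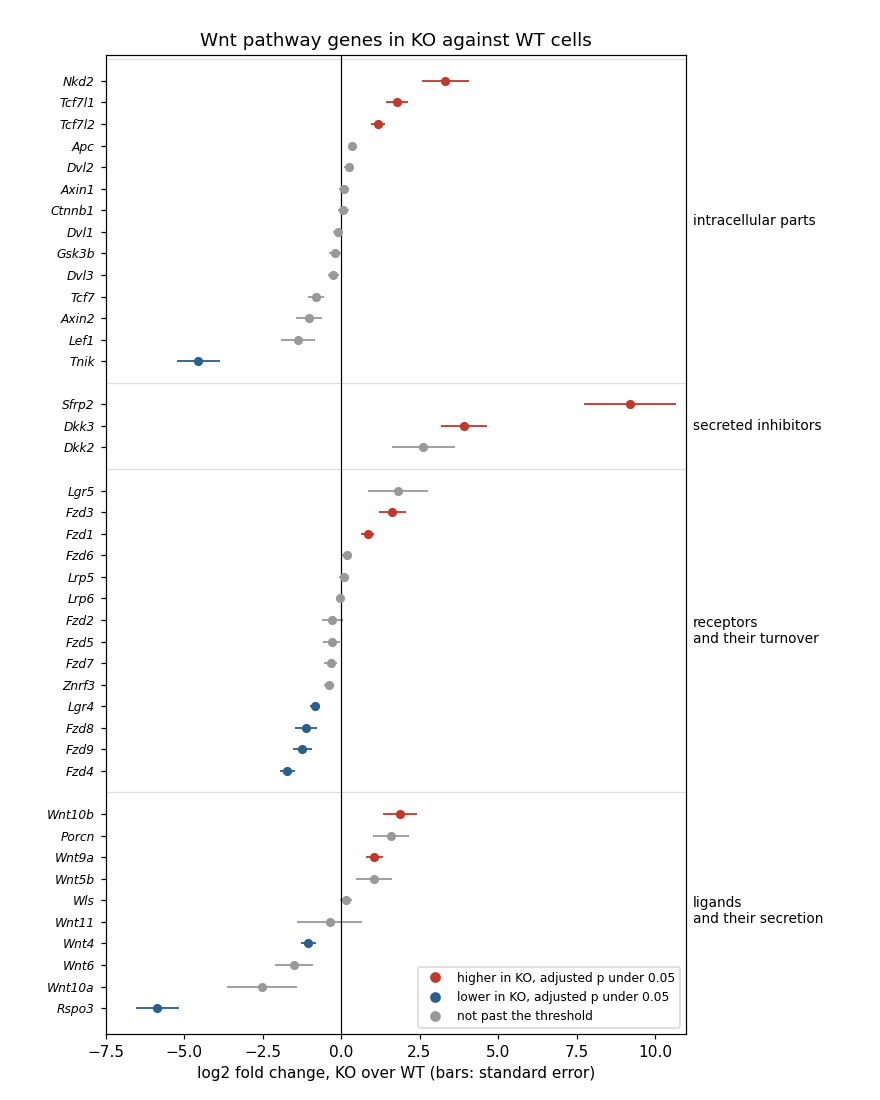
Log2 fold change of KO over WT (x axis, points, with bars for the standard error) for the 41 tested genes, grouped by role on the y axis. The 9 genes past the threshold and higher in KO are red, the 7 that were lower are blue, and *Sfrp2* at 9.21 and *Rspo3* at −5.85 are the ends of the range.

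The targeted gene itself, *Hnrnpa2b1*, had 159, 195 and 249 CPM in KO1 to KO3, while WT1 to WT3 had 225, 229 and 252 CPM. The ranges overlapped, and the log2 fold change was −0.23 (standard error 0.18, adjusted p = 0.381), so the RNA level does not separate the labels. The methods state that loss of the protein in the KO clones was checked by immunofluorescence and Western blot, which these data do not measure. Of 14 skeletal muscle markers, all were above 1 TPM in some library, with a sum of 3510 to 7760 TPM in KO and 5340 to 6820 in WT. Among them *Myf5* and *Mef2c* were lower in KO, and *Cdh15* and *Myod1* higher. Of 7 fibroblast markers, 5 of the 6 tested were higher in KO (*Pdgfra*, *Dpt*, *Pi16*, *Cd34* and *Ly6a*), with a sum of 86.1 to 157 TPM in KO and 21.3 to 28.4 in WT. Of 6 bone markers *Spp1* was higher, and *Alpl*, which passed the filter only through KO so that its direction was fixed, had 185, 24 and 36 counts in KO1 to KO3, against 5, 1 and 2 in WT1 to WT3. *Sp7* and *Ibsp* were under 1 TPM in every library, with sums over the list of 133 to 271 TPM in KO and 99.6 to 133 in WT. All 5 adipocyte and all 5 endothelial markers stayed under 1 TPM, as did the macrophage markers *Ptprc*, *Adgre1*, *Csf1r* and *Itgam*. *Kdr*, an endothelial marker with means of 0.0222 TPM in KO and 0.108 in WT, was lower, and *Cd68* had means of 1.42 and 1.07 TPM. The part of these markers in the results below was not tested.

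The shares of single Wnt ligands in their sum were compared between the libraries without a test. Summed over the 8 Wnt genes, the level was 19.2, 6.93 and 12.3 TPM in KO1 to KO3 and 14.6, 18.5 and 15.1 TPM in WT1 to WT3, and the ranges overlapped. *Wnt10a* made up 59.1% to 62.8% of that sum in the WT libraries and 22.7%, 3.02% and 1.17% in KO1 to KO3. *Wnt9a* made up 22.6% to 28.2% in WT and 52.5%, 73.2% and 83.6% in KO1 to KO3. Thus *Wnt10a* had the highest level of the 8 genes in every WT library and *Wnt9a* in every KO library. In the main test *Wnt9a* passed the threshold and *Wnt10a* did not.

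*Wnt9a* (ENSMUSG00000000126, chromosome 11, 59306928 to 59333552, plus strand) encodes a ligand known from joint and blood stem cell development. Its levels were 10.1, 5.07 and 10.3 TPM in KO1 to KO3 and 3.31, 5.21 and 3.72 TPM in WT1 to WT3. KO1 and KO3 stood above all WT libraries, whereas KO2 lay within the WT range in TPM and just above it in CPM (26.3 against at most 24.4). The log2 fold change was 1.06 (standard error 0.28, adjusted p = 0.0314). The call was lost without KO3, WT1 or WT3, with adjusted p values of 0.0806, 0.127 and 0.108. The median log2 fold change of the other 123 genes tested in its stretch of 10 Mb was −0.24.

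*Wnt10b* (ENSMUSG00000022996, chromosome 15, 98771753 to 98778150, minus strand), a ligand known to hold back fat cell formation, was at 3.25, 1.15 and 1.09 TPM in KO1 to KO3. In WT1 to WT3 it was at 0.530, 0.362 and 0.552 TPM. Every KO library was above every WT library, and KO1 was the highest. In the counts the log2 ratio was 1.88 (standard error 0.53, adjusted p = 0.0396), and 1.04 without KO1. The call was lost without WT1, WT2 or WT3, with adjusted p values of 0.124, 0.109 and 0.101, and in limma on log2(TPM + 1), where the difference was 0.85 (adjusted p = 0.0502).

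*Wnt4* (ENSMUSG00000036856, chromosome 4, 137277489 to 137299726, plus strand), known for its roles in kidney and reproductive organs, went the other way. It was at 0.479, 0.394 and 0.555 TPM in KO1 to KO3 and 1.01, 1.29 and 0.703 TPM in WT1 to WT3. No KO library reached the lowest WT library. On the log2 scale, KO differed from WT by −1.04 (standard error 0.25, adjusted p = 0.0231), and leaving out KO2, KO3, WT1 or WT2 ended the call, with adjusted p values of 0.0535, 0.0568, 0.0909 and 0.0740.

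*Wnt10a* (ENSMUSG00000026167, chromosome 1, 74791516 to 74804179) and *Wnt6* (ENSMUSG00000033227, chromosome 1, 74771892 to 74785322) are neighbours 6.2 kb apart on the plus strand, and both are known from skin and tooth development. *Wnt10a* was at 4.35, 0.209 and 0.144 TPM in KO1 to KO3 and 9.08, 10.9 and 9.48 TPM in WT1 to WT3. *Wnt6* was at 0.192, 0.0366 and 0.0802 TPM in KO1 to KO3 and 0.433, 0.254 and 0.253 TPM in WT1 to WT3. In both genes no KO library reached the lowest of WT, and KO1 lay between the other KO libraries and WT. Neither passed the threshold in the main test, with log2 fold changes of −2.52 (standard error 1.11, adjusted p = 0.136) and −1.51 (standard error 0.61, adjusted p = 0.110). Both passed in edgeR with all libraries when low counts were not filtered, at adjusted p values of 3.41e-10 and 0.0381. Their own counts were the same as in the main test, whose filter both genes had passed, and why the p-values fell was not tested. *Wnt10a* also passed in limma on log2(TPM + 1) and log2(TPM + 0.1), at 0.0128 and 0.0239. Without KO1 both genes passed as well, at −5.74 (adjusted p = 1.56e-05) for *Wnt10a* and −2.47 (adjusted p = 0.0120) for *Wnt6*. The other 76 genes tested in this stretch of 10 Mb had a median of 0.03.

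The remaining ligands were low. *Wnt11* had 67, 1 and 10 counts in KO1 to KO3, against 28, 31 and 35 in WT1 to WT3, so KO1 lay above the WT range and the other KO libraries below it. Its log2 fold change was −0.36 (adjusted p = 0.821), −2.75 without KO1 (adjusted p = 0.0254), 0.22 without KO2 and 0.06 without KO3. *Wnt5b* had 34, 12 and 14 counts in KO and 11, 6 and 9 in WT, where the log2 fold change of 1.05 (adjusted p = 0.219) fell to 0.30 without KO1. *Wnt5a* had at most 5 counts in any library.

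Wls, the carrier that brings Wnt proteins to the cell surface, and Porcn, the enzyme that attaches their lipid, are needed for ligands to be secreted. *Wls* had the highest mean TPM of the 47 genes, at 116, 131 and 158 TPM in KO1 to KO3 and 98.8, 148 and 98.8 TPM in WT1 to WT3. The ranges overlapped at WT2, with a difference of 0.16 on the log2 scale (standard error 0.18, adjusted p = 0.536). *Porcn* was at 83.6, 14.9 and 30.1 TPM in KO1 to KO3 and 14.9, 16.2 and 15.1 TPM in WT1 to WT3. Thus KO1 stood far above all others and KO2 lay at the level of WT. The log2 ratio of 1.60 (standard error 0.58, adjusted p = 0.0820) did not pass the threshold. It was 0.51 without KO1 and passed without KO2, at 2.01 (adjusted p = 0.0244). With all libraries it passed in edgeR when low counts were not filtered (adjusted p = 4.08e-09). The counts of *Porcn* were the same there as in the main test, and why its p-value fell was not tested.

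The largest fall among the 41 genes was in *Rspo3* (ENSMUSG00000019880, chromosome 10, 29453109 to 29535867, minus strand), the R-spondin of the list. It was at 0.259, 0.272 and 0.000 TPM in KO1 to KO3, from 35, 44 and 2 counts. In WT1 to WT3 it was at 9.47, 14.7 and 9.23 TPM, from 1142, 1637 and 1297 counts. The WT libraries were close to each other, and every KO library was far below them, with KO3 at the limit of detection. The log2 fold change was −5.85 (standard error 0.68, adjusted p = 0.00246), a 57.9-fold lower level in KO, and lay between −6.30 and −5.30 when single libraries were left out. It was −3.34 in limma on log2(TPM + 1), a scale that understates the change of genes near 0. The other 39 genes tested in the same 10 Mb had a median of −0.31.

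**Figure D2:**
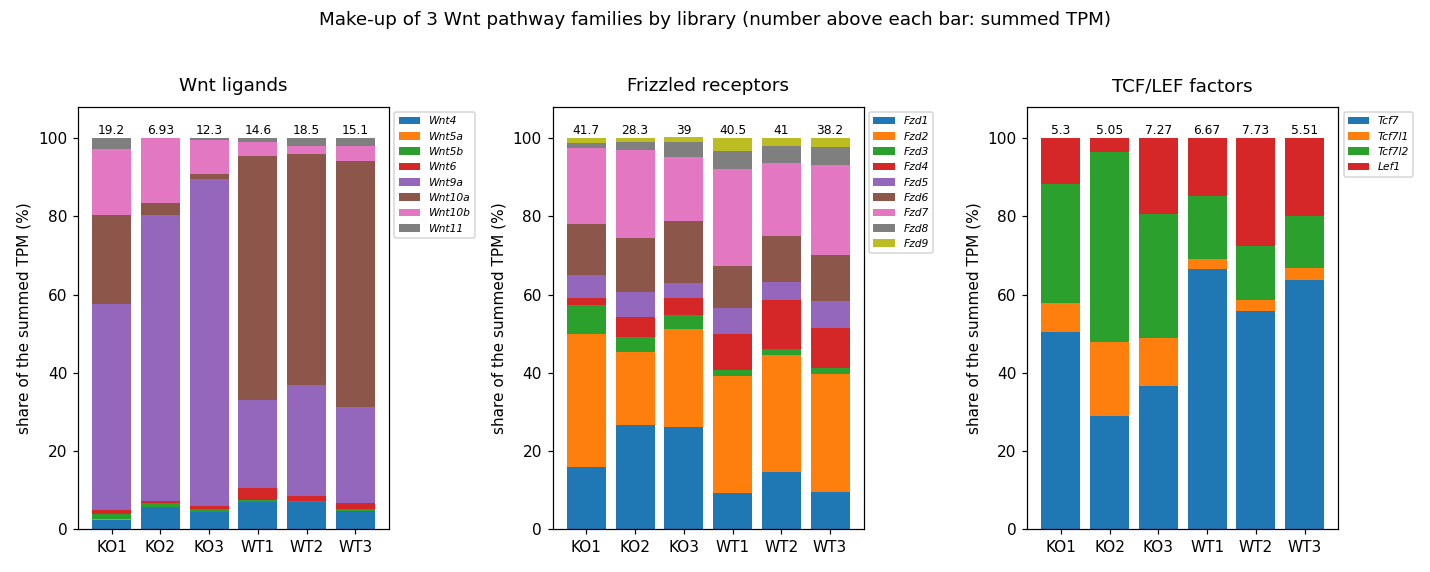
Share of the summed TPM (y axis, %) that each gene contributes within the Wnt ligands, the Frizzled receptors and the TCF/LEF factors, in each library (x axis), with the summed TPM above each bar. *Wnt10a* fills 59.1% to 62.8% of the ligand bars in WT and *Wnt9a* 52.5% to 83.6% in KO, while the Frizzled sums stay between 28.3 and 41.7 TPM.

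The totals of the 9 Frizzled receptors overlapped, at 41.7, 28.3 and 39.0 TPM in KO1 to KO3 and 40.5, 41.0 and 38.2 TPM in WT1 to WT3. Their shares were not tested. Of these receptors 2 were higher in KO, 3 were lower and 4 did not pass the threshold, so 55.6% of the 9 were called against 22.7% of all genes. In WT the order from the highest mean level was *Fzd2* (11.5 to 12.2 TPM in the libraries), *Fzd7* (8.80 ± 1.21 TPM), *Fzd6* (4.56 ± 0.237 TPM), *Fzd1* (4.47 ± 1.34 TPM), *Fzd4* (4.23 ± 0.741 TPM), *Fzd5* (2.42 ± 0.442 TPM), *Fzd8* (1.81 ± 0.0558 TPM), *Fzd9* (1.02 ± 0.304 TPM) and *Fzd3* (0.622 ± 0.0372 TPM), where ± gives the SD over 3 libraries. *Fzd6*, *Fzd1* and *Fzd4* lay within each other's spread. In KO the mean of *Fzd1*, 8.12 ± 1.81 TPM, was near those of *Fzd2*, 9.70 ± 4.40 TPM, and *Fzd7*, 6.96 ± 1.03 TPM, and these did not differ beyond their spread.

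*Fzd4* (ENSMUSG00000049791, chromosome 7, 89404366 to 89410110, plus strand) encodes the receptor best known for binding norrin in retinal vessels. It was at 0.764, 1.44 and 1.75 TPM in KO1 to KO3 and 3.74, 5.08 and 3.87 TPM in WT1 to WT3. The genotypes were well apart. In the counts the log2 ratio was −1.71 (standard error 0.25, adjusted p = 0.00501), or 3.28-fold lower, and the adjusted p stayed at or below 0.0252 under every alternative.

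*Fzd9* (ENSMUSG00000049551, chromosome 5, 135248938 to 135251230, minus strand), a receptor known from bone formation, was at 0.494, 0.335 and 0.429 TPM in KO1 to KO3 and 1.37, 0.833 and 0.856 TPM in WT1 to WT3. Every KO library was lower, at a log2 ratio of −1.23 (standard error 0.31, adjusted p = 0.0268). Leaving out KO2, KO3, WT1 or WT3 ended the call, with adjusted p values of 0.0626, 0.0734, 0.124 and 0.0724. *Fzd8* (ENSMUSG00000036904, chromosome 18, 9212856 to 9216201, plus strand) was at 0.542, 0.542 and 1.51 TPM in KO1 to KO3 and 1.82, 1.86 and 1.75 TPM in WT1 to WT3. KO3 lay close to WT, and the other KO libraries well below it. The log2 ratio of −1.12 (standard error 0.34, adjusted p = 0.0477) was just past the threshold, and of the fits with 1 library left out it passed without KO3 only, at adjusted p values of 0.0602 without KO1, 0.109 without KO2, 0.130 without WT1, 0.0985 without WT2 and 0.126 without WT3. The call was lost in limma too, at 0.0599 on log2(TPM + 1) and 0.0667 on log2(TPM + 0.1). Over the alternatives the log2 ratio of *Fzd8* lay between −1.62 and −0.63.

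*Fzd1* (ENSMUSG00000044674, chromosome 5, 4753839 to 4758035, minus strand) rose. It was at 6.66, 7.54 and 10.2 TPM in KO1 to KO3 and 3.75, 6.02 and 3.63 TPM in WT1 to WT3. All KO libraries were above all WT libraries, with WT2 the nearest. On the log2 scale, KO differed from WT by 0.85 (standard error 0.20, adjusted p = 0.0221), and the call was lost without KO3, WT1 or WT3, with adjusted p values of 0.0644, 0.0967 and 0.0956.

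*Fzd3* (ENSMUSG00000007989, chromosome 14, 65201026 to 65262463, minus strand), a receptor known from axon guidance and planar cell polarity, rose as well. It was at 3.13, 1.07 and 1.40 TPM in KO1 to KO3 and 0.616, 0.662 and 0.589 TPM in WT1 to WT3. KO1 was the highest and the WT libraries were nearly equal. The log2 fold change was 1.63 (standard error 0.43, adjusted p = 0.0320), and 0.91 without KO1. The call was lost without WT1, WT2 or WT3, with adjusted p values of 0.119, 0.0795 and 0.105, and in limma on log2(TPM + 1), where the difference was 0.76 (adjusted p = 0.0567). The medians of the other genes in the same 10 Mb were 0.29 around *Fzd3* and 0.22 around *Fzd1*.

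*Fzd2*, the highest Frizzled gene in WT, was at 14.1, 5.29 and 9.72 TPM in KO1 to KO3 and 12.1, 12.2 and 11.5 TPM in WT1 to WT3, with KO1 above WT and the other KO libraries below it. It did not pass the threshold (log2 fold change −0.28, adjusted p = 0.557), was −0.78 without KO1 (adjusted p = 0.0172) and turned to 0.01 without KO2. The log2 fold changes of *Fzd5*, *Fzd6* and *Fzd7* were −0.30, 0.18 and −0.33. Neither co-receptor gene passed the threshold or had an unadjusted p under 0.05. *Lrp5* was at 15.1, 21.3 and 16.3 TPM in KO1 to KO3 and 16.9, 17.3 and 16.5 TPM in WT1 to WT3. *Lrp6* had 7.40 ± 1.91 TPM in KO and 7.54 ± 0.493 TPM in WT (SD, n = 3). Both ranges overlapped. Their log2 fold changes were 0.09 and −0.03, with standard errors of 0.15 and 0.13, and both changed sign with a single library left out.

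The receptor of R-spondins with the higher level, *Lgr4* (ENSMUSG00000050199, chromosome 2, 109917647 to 110014257, plus strand), was lower in KO, as its ligand gene *Rspo3* was. It was at 3.62, 3.61 and 6.20 TPM in KO1 to KO3 and 7.23, 8.80 and 6.93 TPM in WT1 to WT3. No KO library reached WT, though KO3 came close. In the counts the log2 ratio was −0.82 (standard error 0.16, adjusted p = 0.0117), and the adjusted p stayed at or below 0.0465. *Lgr5*, a stem cell marker of the gut, had 126 counts in KO3 and 7 to 19 in the 5 other libraries, so its log2 fold change of 1.82 (adjusted p = 0.198), which passed only with no filter on low counts, became −0.10 without KO3.

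*Znrf3*, which encodes a ubiquitin ligase that removes Frizzled receptors from the surface, was at 2.17, 2.63 and 3.77 TPM in KO1 to KO3 and 3.94, 3.48 and 3.88 TPM in WT1 to WT3. Its KO libraries were all lower in CPM, with a log2 ratio of −0.39 (standard error 0.15) that did not pass the threshold (adjusted p = 0.0943).

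The secreted inhibitors were nearly absent from WT, where their 6 genes summed to 0.423, 0.0978 and 0.488 TPM in WT1 to WT3. In KO1 to KO3 the sum was 4.51, 134 and 82.6 TPM. Most of it, 72.1% to 96.8%, was *Sfrp2* (ENSMUSG00000027996, chromosome 3, 83766321 to 83774316, plus strand), which encodes a secreted protein with a Frizzled-like domain that binds Wnt ligands. *Sfrp2* was at 3.25, 129 and 80.0 TPM in KO1 to KO3 and at 0.124, 0.000 and 0.109 TPM in WT1 to WT3. KO2 and KO3 thus exceeded the summed Wnt ligands of the same libraries, and KO1 did not. On the log2 scale, KO differed from WT by 9.21 (standard error 1.46, adjusted p = 0.00617). The size of this difference is uncertain. WT had only 2 to 12 counts, and the range of log2 CPM was 5.22 in KO and 0.59 in WT. The log2 fold change lay between 5.05 and 9.76 over the alternatives.

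*Dkk3* (ENSMUSG00000030772, chromosome 7, 112116019 to 112159057, minus strand) encodes the most divergent Dickkopf protein, whose action on Wnt signals is debated. It was at 0.910, 3.92 and 2.54 TPM in KO1 to KO3 and 0.249, 0.000 and 0.210 TPM in WT1 to WT3. All KO libraries were higher, with KO1 nearest to WT as for *Sfrp2*. The log2 fold change was 3.91 (standard error 0.74, adjusted p = 0.0110), a 15.1-fold higher level, and 3.31 without KO2. *Dkk2* had 74, 142 and 5 counts in KO1 to KO3, against 5, 7 and 19 in WT1 to WT3, so KO3 lay among WT. The log2 ratio of 2.62 (adjusted p = 0.0934) missed the threshold, which it passed with all libraries in DESeq2 (adjusted p = 0.0122) and with no filter on low counts (adjusted p = 7.39e-05), and without KO3, at 3.18 (adjusted p = 0.0176). Over the alternatives the ratio lay between 1.88 and 3.29, with an adjusted p of up to 0.262, without WT1. *Sfrp1* had 0, 9 and 13 counts in KO and 1, 0 and 0 in WT, *Frzb* 0, 0 and 1 in KO and 1, 6 and 16 in WT, and *Wif1* at most 6 counts in any library.

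**Figure D3:**
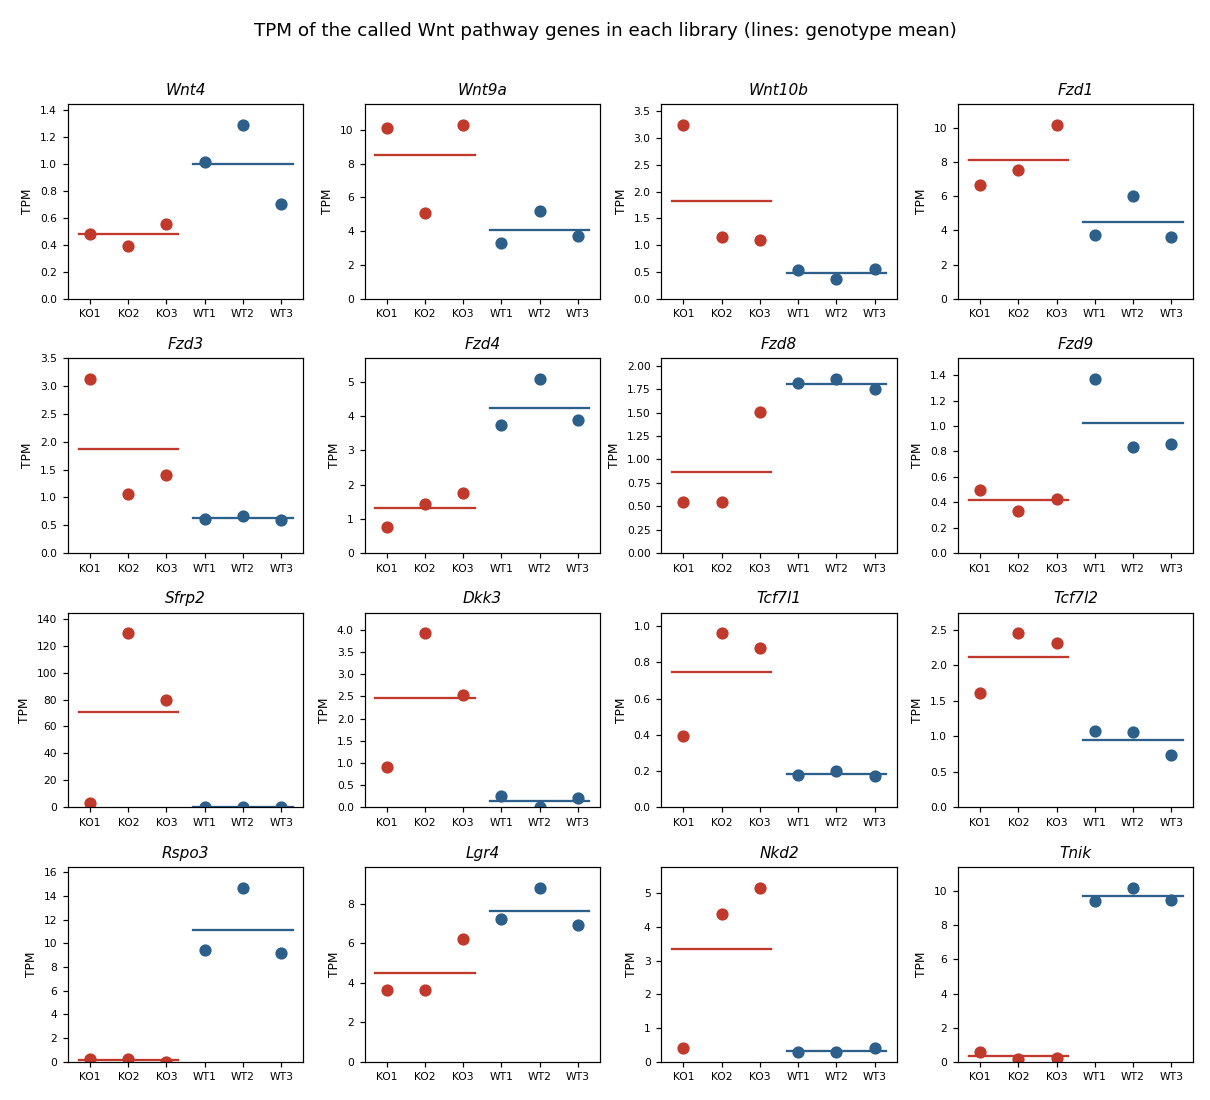
TPM (y axis, linear, from 0) of the 16 genes past the threshold in each library (x axis, points red for KO and blue for WT), with a line at the mean of each genotype. *Rspo3* and *Tnik* are near 0 in all KO libraries, whereas *Sfrp2* and *Nkd2* are high in KO2 and KO3 and low in KO1.

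Of the 8 genes of the β-catenin core, 0 were called, where 22.7% of all genes were. None of *Ctnnb1*, *Axin1*, *Axin2*, *Apc* and *Gsk3b* and none of the 3 Dishevelled genes passed the threshold in the main test, though *Axin2* and *Apc* had an unadjusted p under 0.05 and *Axin2* passed in DESeq2 and with no filter on low counts. *Ctnnb1*, which encodes β-catenin, was at 85.1, 107 and 125 TPM in KO1 to KO3 and 89.3, 115 and 81.7 TPM in WT1 to WT3. KO and WT overlapped, with a difference of 0.07 on the log2 scale (standard error 0.17, adjusted p = 0.792). *Axin1*, a scaffold of the destruction complex, was at 10.5 ± 1.14 and 10.2 ± 1.68 TPM (SD, n = 3), and *Gsk3b*, its kinase, at 7.09 ± 1.83 and 8.14 ± 1.65 TPM (SD, n = 3). *Dvl1* was the highest Dishevelled gene, at 28.8 to 36.2 TPM over the KO libraries and 31.2 to 38.0 TPM over WT. The log2 fold changes of *Dvl1*, *Dvl2* and *Dvl3* were −0.10, 0.24 and −0.25, and that of *Dvl2* was −0.01 in both fits on TPM.

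*Axin2* encodes a second scaffold of the complex and is a widely used readout of canonical signalling, since β-catenin activates it. It was at 1.42, 0.707 and 1.32 TPM in KO1 to KO3 and 1.49, 3.76 and 1.56 TPM in WT1 to WT3. WT2 stood above all others, and KO1 was close to WT1 and WT3. In the counts the log2 ratio was −1.02 (standard error 0.41, adjusted p = 0.105), and −0.49 without WT2. *Apc* had 8.46 ± 2.41 TPM in KO and 6.72 ± 0.179 TPM in WT (SD, n = 3), with every KO library higher in CPM, at a log2 ratio of 0.36 (standard error 0.15, adjusted p = 0.113).

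The TCF/LEF factors bring β-catenin to its target genes, and their shares were also compared without a test. Their sum was 5.30, 5.05 and 7.27 TPM in KO1 to KO3 and 6.67, 7.73 and 5.51 TPM in WT1 to WT3. *Tcf7* made up 55.9% to 66.5% of it in WT and 28.9% to 50.4% in KO, and *Tcf7l2* 13.3% to 16.1% in WT and 30.3% to 48.6% in KO. In the main test *Tcf7l2* passed the threshold and *Tcf7* did not. *Tcf7l2* (ENSMUSG00000024985, chromosome 19, 55741810 to 55933654, plus strand) was at 1.61, 2.45 and 2.31 TPM in KO1 to KO3 and 1.07, 1.06 and 0.732 TPM in WT1 to WT3. The genotypes did not overlap, at a log2 ratio of 1.18 (standard error 0.22, adjusted p = 0.0102), and the call was lost without WT3 (adjusted p = 0.0537). Over the alternatives the ratio lay between 0.67 and 1.29.

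*Tcf7l1* (ENSMUSG00000055799, chromosome 6, 72626378 to 72789254, minus strand), known mainly as a repressor, was at 0.396, 0.960 and 0.881 TPM in KO1 to KO3 and 0.179, 0.203 and 0.174 TPM in WT1 to WT3. Every KO library was higher. On the log2 scale, KO differed from WT by 1.78 (standard error 0.36, adjusted p = 0.0133), and the call was lost without WT1 or WT3, with adjusted p values of 0.0729 and 0.0576. *Tcf7* was at 2.67, 1.46 and 2.67 TPM in KO1 to KO3 and 4.44, 4.32 and 3.51 TPM in WT1 to WT3, and *Lef1* at 0.629, 0.175 and 1.41 TPM in KO and 0.984, 2.14 and 1.09 TPM in WT. In CPM both had all KO libraries below WT, but in TPM the *Lef1* ranges overlapped at KO3. Their log2 fold changes were −0.80 (standard error 0.25, adjusted p = 0.0567) and −1.38 (standard error 0.54, adjusted p = 0.102). *Tcf7* passed without KO1, at −1.06 (adjusted p = 0.0105), and both passed with all libraries in DESeq2, at adjusted p values of 0.0164 and 0.0203, and with no filter on low counts. *Tcf7* passed in both limma fits as well.

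The letters CTTTGAT, the core that TCF/LEF factors recognise, were searched on both strands in RefSeq's windows from 250 bases before to 50 after each start site (GRCm38.p6). Such windows were found for 30 of the 47 genes. Those of 2 genes, *Wnt5b* and *Wnt11*, held the letters (6.67%), against 4.29% of all 27025 genes with a window and 0 of the 11 genes past the threshold that have one. They are shown, read along the gene's strand with the matched letters in capitals, because they are the only matches among these genes.
Wnt5b: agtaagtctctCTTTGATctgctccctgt
Wnt11: gacgtgggcggATCAAAGcgacggtccgc
The *Wnt5b* stretch lies at chr6:119449440-119449468 on the minus strand, where the match begins 71 bases before one of its start sites. The *Wnt11* stretch lies at chr7:98835050-98835078 on the plus strand, with the match 51 bases before a start site. Neither gene passed the threshold. A match is a description of these letters and not a binding site, and a missing match says nothing of sites elsewhere.

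*Tnik* (ENSMUSG00000027692, chromosome 3, 28263214 to 28675858, plus strand) encodes a kinase that binds TCF factors and activates them. It was at 0.547, 0.145 and 0.245 TPM in KO1 to KO3 and 9.42, 10.2 and 9.47 TPM in WT1 to WT3. In WT it was thus as abundant as *Axin1*, and in KO all libraries were far lower, with KO1 the highest. The log2 fold change was −4.55 (standard error 0.68, adjusted p = 0.00519), −5.88 without KO1 and −3.04 in limma on log2(TPM + 1). The other 15 genes tested in its 10 Mb had a median of −0.32.

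*Nkd2* (ENSMUSG00000021567, chromosome 13, 73818534 to 73847631, minus strand) encodes a Naked cuticle protein, which binds Dishevelled and dampens canonical signalling. It was at 0.418, 4.39 and 5.16 TPM in KO1 to KO3 and 0.296, 0.286 and 0.413 TPM in WT1 to WT3. KO1 was at the upper edge of WT and only KO2 and KO3 stood apart. In the counts the log2 ratio was 3.32 (standard error 0.74, adjusted p = 0.0188), and 3.83 without KO1. The call was lost without KO3, WT1, WT2 or WT3, with adjusted p values of 0.0538, 0.0875, 0.0582 and 0.0703. Its paralog *Nkd1* had at most 7 counts in any library.

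The KO libraries varied more than the WT libraries. In 35 of the 41 genes the range of log2 CPM was wider over KO than over WT, where this held for 69.6% of all genes tested. KO1 was the KO library nearest to the WT mean in 20 of the 41 genes (48.8%, against 43.9% of all genes), KO2 in 11 and KO3 in 10. KO1 was nearest in 9 of the 16 genes past the threshold, among them *Sfrp2*, *Dkk3*, *Nkd2* and *Tnik*. It was the farthest in other genes, among them *Wnt9a*, *Wnt10b*, *Fzd3*, *Fzd4*, *Fzd8* and *Porcn*.

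**Figure D4:**
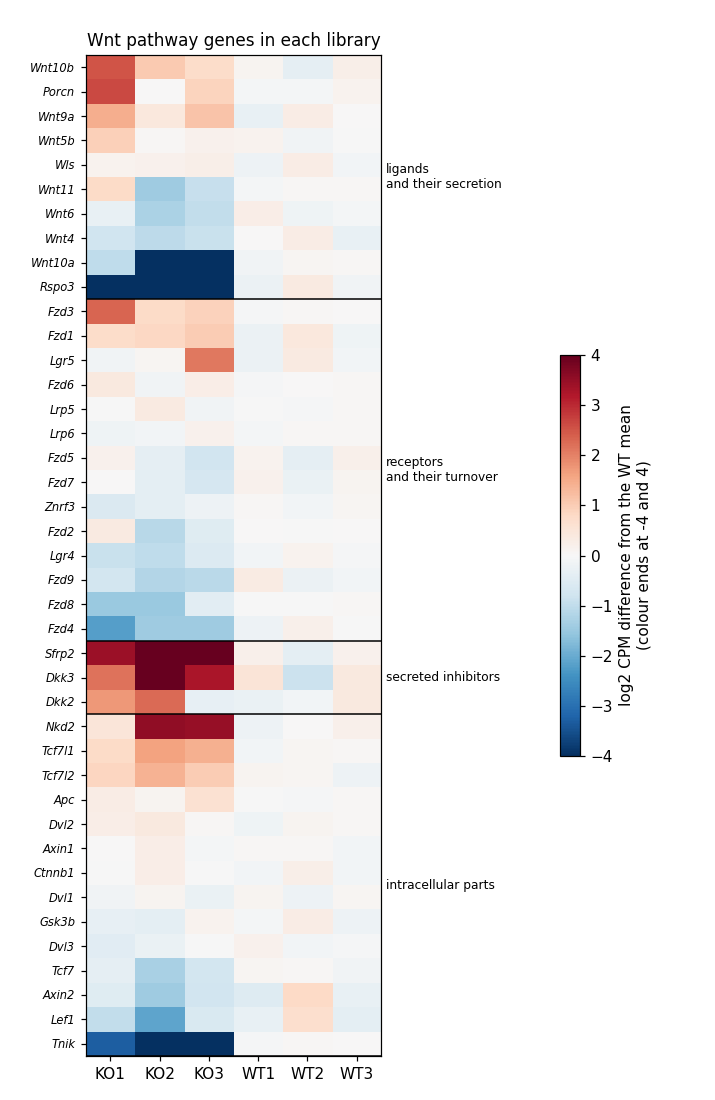
Difference of log2 CPM from the WT mean (colour, red higher and blue lower, ending at −4 and 4) for the 41 tested genes (y axis, by role) in each library (x axis). *Wnt10a*, *Sfrp2* and *Nkd2* stand out in KO2 and KO3 more than in KO1, and *Porcn* and *Wnt10b* in KO1.

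Of 126 other genes of the pathway taken from general knowledge, 94 were tested, of which 14 were higher in KO and 13 lower (28.7%, against 22.7% of all genes). In the main test none of 15 other ligand and R-spondin genes was called, only 2 of them had enough counts to test, and 1 of these, *Rspo2*, had an unadjusted p under 0.05. The other R-spondin genes *Rspo1* and *Rspo2*, named after their values were seen, had counts in some KO libraries. *Rspo1* had 274, 112 and 6 counts in KO1 to KO3, against 0, 0 and 1 in WT1 to WT3, and was not tested because it did not pass the filter. *Rspo2* had 0, 105 and 310 counts in KO1 to KO3, against 10, 10 and 4 in WT1 to WT3, so KO1 lay below WT and the other KO libraries above it (log2 ratio 3.82, standard error 1.41, adjusted p = 0.0862). Among 5 tested extracellular inhibitors was *Notum*, which encodes an enzyme that removes the lipid of Wnt proteins. It had 66, 33 and 19 counts in KO1 to KO3, against 0, 0 and 1 in WT1 to WT3, and passed the filter only through KO. *Sfrp5*, which also passed the filter only through KO, had a log2 fold change of 5.13 (adjusted p = 0.0310). *Sfrp4* was lower, with a log2 fold change of −1.32 (adjusted p = 0.0280). *Sfrp5* had 136, 12 and 12 counts in KO1 to KO3 and 1 or 2 in WT, and its value was 2.79 without KO1. Both of these calls were lost without WT1 or WT3, that of *Sfrp5* also without WT2 and that of *Sfrp4* also without KO2, with adjusted p values of up to 0.117 and 0.105.

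*Gpc3*, which encodes a glypican that binds Wnt proteins, had 0 counts in every KO library and 12, 16 and 23 counts in WT1 to WT3. *Gpc3*, *Notum* and *Sfrp5* reached 10 counts only in the genotype where they were high and passed the filter through it, so the filter fixed their direction, and their counts are a description although they are among the 27 genes called.

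The other named genes of the pathway were spread over its roles. *Lrp4*, a receptor of the neuromuscular junction, and *Siah1a*, a ubiquitin ligase gene, were higher in KO by 1.03 and 1.21 on the log2 scale, and the other genes in the 10 Mb around *Siah1a* had a median of 0.61. The casein kinase gene *Csnk1g1* and the calcium-dependent kinase gene *Camk2d* fell by 1.04 and 1.07. These 4 calls held with each library left out. *Apc2*, *Tle2* and *Invs* rose by 1.48, 1.24 and 1.13, and the corepressor gene *Tle4* and the polarity gene *Celsr3* fell by 2.01 and 3.25. All 5 calls were lost without WT1, those of *Invs* and *Celsr3* also without KO3 or WT3, and that of *Tle2* when any library other than KO1 was left out. Over the alternatives, the log2 fold change lay between −2.52 and −0.76 for *Tle4* and between −4.38 and −2.73 for *Celsr3*.

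*Pygo1*, a partner of β-catenin in the nucleus, rose by 3.48 on the log2 scale (standard error 0.34, adjusted p = 0.00147), with 0.519, 0.866 and 1.29 TPM in KO1 to KO3 and 0.0559, 0.0817 and 0.0849 TPM in WT1 to WT3. Of 15 tested genes that textbooks list as targets of β-catenin, 4 rose, 2 fell and 9 did not pass the threshold, where 12.1% of all genes were higher and 10.6% lower. *Ccn5*, a matricellular protein gene listed as *Wisp2*, was at 9.05, 16.0 and 23.4 TPM in KO1 to KO3 and 2.68, 2.03 and 2.71 TPM in WT1 to WT3, with a log2 ratio of 2.70 (standard error 0.28, adjusted p = 0.00181) in a stretch of 10 Mb whose other genes had a median of 0.54. *Fst*, which encodes the myostatin inhibitor follistatin, was at 17.5, 6.26 and 16.7 TPM in KO and 50.7, 42.9 and 56.2 TPM in WT, with a log2 ratio of −1.90 (standard error 0.36, adjusted p = 0.0111). *Nrcam*, a cell adhesion gene with 5 to 13 counts in KO and 28 to 41 in WT, fell by 2.07 on the log2 scale (adjusted p = 0.0199) and kept its call only without KO1 among the libraries left out, with an adjusted p of up to 0.0811. *Bmp4*, *Ccnd1* and *Fosl1* rose by 2.22, 1.21 and 1.15 on the log2 scale, with *Bmp4* at 1.47 in limma on log2(TPM + 1). All 3 calls were lost without WT1, with adjusted p values of 0.0519, 0.0654 and 0.121, that of *Ccnd1* also without WT3 and that of *Fosl1* also without KO3, WT2 or WT3.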

How the data were processed

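Reads of total RNA depleted of ribosomal RNA were aligned by the authors with STAR and counted per gene, and the raw counts of 6 libraries were deposited without normalization, with 0 count columns unused. The deposited TPM values came from StringTie and were summed per gene identifier. Tool versions and use of strand are not given in the sources used here: genes overlap on the opposite strand in 23 of the 47 genes, among them *Sfrp2*, *Rspo3*, *Fzd3*, *Tcf7l1* and *Nkd2*. The labels name mm9 and the methods GRCm39, whereas the deposited coordinates, printed here, fit GRCm38. Counts were scaled with TMM factors, filtered with filterByExpr and tested two-sided with edgeR's quasi-likelihood test (R 4.3.3, edgeR 4.0.16), and standard errors were derived from its F statistics. Of 46078 genes, 14828 were tested. Alternatives used DESeq2 1.42.0, limma 3.58.1 on log2(TPM + 1) and log2(TPM + 0.1), another scaling, other filters, a replicate block and each library left out. The tests across genes were tested on simulated data that had the same spread for all genes and both genotypes. The simulation does not show how they act with the wider spread of the KO libraries. The 47 genes and the lists were chosen with earlier results of these data known. Every gene past the threshold and the highest gene of each kind are given in full, and other pathway genes when past the threshold, at least 2-fold changed and without overlap. *Rspo1* and *Rspo2* fall outside this rule and were named after their values were seen. Replicate libraries differed by more than sampling noise (chi-square per degree of freedom of 46.6 or more).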

Additional observations from a re-analysis of the deposited data

How the results depend on the processing

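Scaling by relative log expression, and a filter of 10 counts in 3 libraries, left the counts of calls as they were for the 47 genes (9 higher and 7 lower). DESeq2 called 21 of them, 10 higher and 11 lower (24.3% of all genes), with 4 secreted inhibitors, 7 intracellular parts and 42 other pathway genes. With no filter on low counts 26 were called, 13 higher and 13 lower (15.0% of all genes), with 7 ligand genes, 5 secreted inhibitors, 7 intracellular parts and 44 other pathway genes. With limma on log2(TPM + 1) 10 were called, 4 of them higher (20.5% of all genes), with 3 receptor genes, 1 secreted inhibitor and 15 other pathway genes, and with log2(TPM + 0.1) 12 were called (20.3% of all genes), with 1 secreted inhibitor and 13 other pathway genes, over fewer genes tested. *Dvl2* turned to −0.01 in both TPM fits. The replicate numbers pair the libraries by name only: deviations of same-numbered libraries correlated at 0.163, −0.122 and −0.0502, and with the replicate block 13 of the 47 genes were called, 2 of them ligand genes, and 2520 of all genes (17.0%). The block ended the calls of *Wnt4*, *Wnt9a* and *Fzd3*, at adjusted p values of 0.0529, 0.0741 and 0.0515, and that of *Fosl1*.

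With each library left out in turn, 7 to 20 of the 47 genes were called, 2 to 10 higher and 4 to 11 lower. By role these were 1 to 7 ligand genes, 2 to 6 receptor genes, 2 to 3 secreted inhibitors and 1 to 5 intracellular parts, beside 11 to 35 other pathway genes and 933 to 4712 of all genes. Log2 fold changes that crossed 0 in these fits ranged from −2.75 to 0.22 for *Wnt11*, −0.78 to 0.01 for *Fzd2*, −0.06 to 0.19 for *Lrp5*, −0.14 to 0.03 for *Lrp6*, −0.02 to 0.18 for *Ctnnb1*, −0.02 to 0.16 for *Axin1* and −0.10 to 2.37 for *Lgr5*. Of the 16 genes past the threshold, 6 kept it under every alternative that could test them. For *Sfrp2*, *Rspo3* and *Tnik* among them, the filter of the limma fits fixed the direction. Under every alternative that kept all libraries 11 genes kept the threshold, and the cause of the losses was not tested. *Rspo1*, *Sfrp1* and the other genes under the count filter could not be tested at this depth in the main test.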
